A study of Danio rerio with 416 samples.

Results

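Fibroblast growth factor (FGF) ligand genes of the embryonic margin were followed in single cells of zebrafish embryos at 50% epiboly. The members are FGF3, FGF8A, FGF17 and FGF24, written below as fgf3, fgf8a, fgf17 and fgf24. They were taken by name and make up 4 of the 25208 gene rows of the full-length expression table. The UMI count table of the 5-prime libraries has 19205 gene rows, 3 of which are members, and fgf8a was not analysed here in those libraries.

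One group of embryos carried the genotype MZoep tz57, which lacks one-eyed pinhead from both mother and zygote, and the others were wild-type TLAB (WT below). Parents of each genotype were incrossed, embryos were freed of yolk and broken up mechanically at 50% epiboly, and single cells were picked by hand. Each sample is 1 cell, and full-length SMART-seq2 libraries of both genotypes were made in library preparation batches p1 to p4. In batch p0, 88 MZoep cells got 5-prime libraries carrying unique molecular identifiers (UMIs), for which there were no WT cells. A gene is called detected in a full-length cell at 1 FPKM (fragments counted for each kilobase of a transcript and scaled to library size) or more. Cells with at least 1500 detected genes were kept, and these were 79, 80, 61 and 25 MZoep cells and 3, 14, 18 and 12 WT cells in p1 to p4, the WT cells 47 in all. No label ties a cell to an embryo or clutch, so a genotype counts as 1 sample: there is no test across replicates, and intervals of shares are exact binomial 95% intervals that cover counting error over cells only. Genotype, strain, clutch and the choice of the cells picked cannot be told apart.

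FGF ligands are secreted proteins that bind receptor tyrosine kinases and act through the Ras and MAP kinase cascade, which induces transcription factors of the ETS family and feedback inhibitors such as the Sprouty proteins and dual-specificity phosphatases. At the onset of gastrulation several FGF genes are transcribed in the blastoderm margin, where mesoderm and endoderm arise and where Nodal signals act. One-eyed pinhead (tdgf1) is the co-receptor that Nodal ligands need, so the comparison asks how transcripts of these ligands differ in embryos that cannot receive Nodal signals.

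Transcripts of fgf8a, fgf3 and fgf24 were found in few MZoep cells and at low values, while a minority of WT cells held them at high values. At 10 FPKM or more, 0 MZoep cells (0%, upper limit 1.49%) and 12 of 47 WT cells (25.5%, 13.9 to 40.4) held at least 1 of these 3 genes. These 3 genes were grouped after the values were seen, and the limits do not allow for that choice. The level of 10 FPKM lies just above their highest MZoep value, 9.58 FPKM. At 1 FPKM or more, at least 1 of them was in 5.71% of MZoep cells and 38.3% of WT cells. The fourth ligand gene, fgf17, did not follow this pattern. At 10 FPKM or more it was in 5.71% of MZoep cells (3.16 to 9.40) and 10.6% of WT cells (3.55 to 23.1). At 1 FPKM or more it was in 26.9% of MZoep cells and 38.3% of WT cells. Read depth is unknown, and 2 stand-ins for it did not point one way. The 10th percentile of a cell's FPKM values above 0, which is higher in shallower libraries, had medians of 0.65, 1.11, 0.67 and 0.64 FPKM in MZoep cells of p1 to p4 and 0.57, 1.24, 0.57 and 0.70 FPKM in WT cells. The median number of detected genes in p1 to p4 was 7011, 7527.5, 7511 and 6793 in MZoep cells and 6972, 7011.5, 6726.5 and 7161.5 in WT cells, so it was higher in MZoep in p1 to p3 and lower in p4. What depth contributes to the shares below was not tested.

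**Figure D1:**
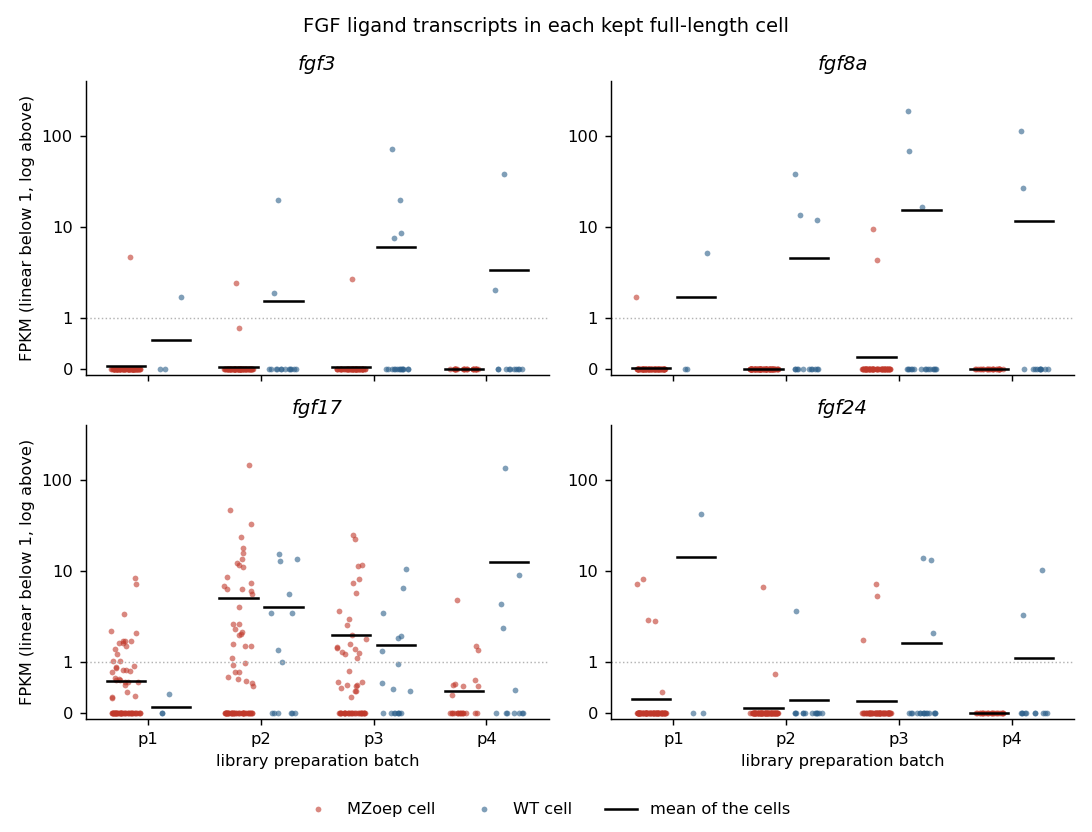
FPKM of the 4 ligand genes in each kept full-length cell (points), by library preparation batch, with MZoep left of WT and the mean of the cells as a line; the axis is linear below 1 and logarithmic above. No MZoep cell reaches 10 FPKM for fgf3, fgf8a or fgf24, whereas fgf17 lies above 10 FPKM in 14 MZoep and 5 WT cells.

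The gene fgf8a encodes a ligand that in zebrafish acts in mesoderm, heart and midbrain-hindbrain boundary development, and is the one with the highest WT level of the 4. Among MZoep cells it was above 0 in 3, at 1.69 FPKM in p1 and at 9.58 and 4.33 FPKM in p3. Among WT cells it was above 0 in 9 of 47, at 5.15 FPKM in p1, 38.5, 13.5 and 11.8 FPKM in p2, 189.03, 68.4 and 16.6 FPKM in p3, and 112.1 and 26.7 FPKM in p4. The highest MZoep cell thus lay below 8 of the 9 WT cells that held the transcript, although most cells of both genotypes were at 0. The shares with fgf8a detected were 1.22% of MZoep cells (0.253 to 3.54) and 19.1% of WT cells (9.15 to 33.3).

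Averaged with the same batch weights in both genotypes, fgf8a had 0.0878 FPKM in MZoep and 9.91 FPKM in WT. The log2 ratio of MZoep over WT, with 1 FPKM added to both means, was -3.33, and within p1 to p4 it was -1.41, -2.47, -3.72 and -3.65. The highest WT cell, in p3, held 39.2% of the WT sum, and without it the ratio was -2.70. Of the 15831 genes called measured (detected in 5% or more of the cells of either genotype), 6 had a ratio below -3.33. At least 2-fold lower in MZoep were 402 of the measured genes (2.54%) and at least 2-fold higher 816 (5.15%). Of the 4 ligand genes, 3 passed 2-fold on the lower side and 0 on the higher side. These 3, fgf8a, fgf3 and fgf24, were called measured only through the WT cells, where they are higher. In MZoep they were detected in 1.22%, 1.22% and 3.27% of cells. Their place among the measured genes is therefore no separate support for a difference.

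The gene fgf3, whose product acts with fgf8 in hindbrain and ear development, had the same numbers of detected cells as fgf8a but lower values. In MZoep it was above 0 in 4 cells, at 4.65 FPKM in p1, 2.41 and 0.8 FPKM in p2, and 2.68 FPKM in p3. In WT it was above 0 in 9 cells, at 1.7 FPKM in p1, 19.7 and 1.91 FPKM in p2, 72.03, 19.6, 8.54 and 7.62 FPKM in p3, and 38.4 and 2.05 FPKM in p4. The ranges overlap, since 3 WT cells lay below the highest MZoep cell and the other 6 above it.

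Weighted means of fgf3 were 0.0342 FPKM in MZoep and 3.55 FPKM in WT, a log2 ratio of -2.14. Within p1 to p4 it was -0.57, -1.29, -2.74 and -2.13. The highest WT cell, in p3, held 41.99% of the WT sum and had 1877 genes, the fewest of any kept WT cell. Without that cell the ratio was -1.57.

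The gene fgf24 encodes a ligand of the same subfamily as fgf8 and fgf17, known in zebrafish for roles in posterior mesoderm together with fgf8 and in the pectoral fin bud. In MZoep it was above 0 in 10 cells, at 8.16, 7.18, 2.91, 2.88 and 0.42 FPKM in p1, 6.68 and 0.78 FPKM in p2, and 7.18, 5.4 and 1.75 FPKM in p3. In WT it was above 0 in 7 cells, at 42.98 FPKM in p1, 3.7 FPKM in p2, 14.01, 13.2 and 2.11 FPKM in p3, and 10.2 and 3.34 FPKM in p4. The 4 highest values were all in WT cells, and the other 3 WT values lay within the MZoep range.

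The gene was detected in 8 MZoep cells (3.27%, 1.42 to 6.33) and 7 of 47 WT cells (14.9%, 6.20 to 28.3), so the intervals touch. Weighted means were 0.140 FPKM in MZoep and 2.08 FPKM in WT, a log2 ratio of -1.43, with -3.59, -0.21, -1.09 and -1.09 within p1 to p4. As for fgf3 and fgf8a, 1 WT cell held a large part of the WT sum. The WT cell at 42.98 FPKM, in p1 with its 3 WT cells, held 47.96% of the WT sum, and without it the ratio was -0.80, less than 2-fold.

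The gene fgf17, another ligand of the fgf8 subfamily, was the most widespread member. In MZoep its values ran from 0 over a median of 0 to 147.7 FPKM, with 45.3% of cells above 0. In WT they ran from 0 over a median of 0.38 to 136.6 FPKM, with 51.1% of cells above 0. The 2 ranges overlap almost entirely. It was detected in 66 MZoep cells (26.9%, 21.5 to 32.96) and 18 of 47 WT cells (38.3%, 24.5 to 53.6).

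Weighted means of fgf17 were 2.57 FPKM in MZoep and 4.72 FPKM in WT, a log2 ratio of -0.68 that was not in 1 direction across batches. It was 0.54, 0.29 and 0.23 within p1, p2 and p3, and -3.26 within p4, where a WT cell at 136.6 FPKM held 89.3% of the sum of the 12 WT cells. That cell held 57.4% of the fgf17 sum of all WT cells, and without it the ratio turned to 0.15. Batches also differed within MZoep, where fgf17 was detected in 18.99%, 35%, 32.8% and 12% of cells in p1 to p4. All 14 MZoep cells at 10 FPKM or more came from p2, which holds 10, and p3, which holds 4.

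**Figure D2:**
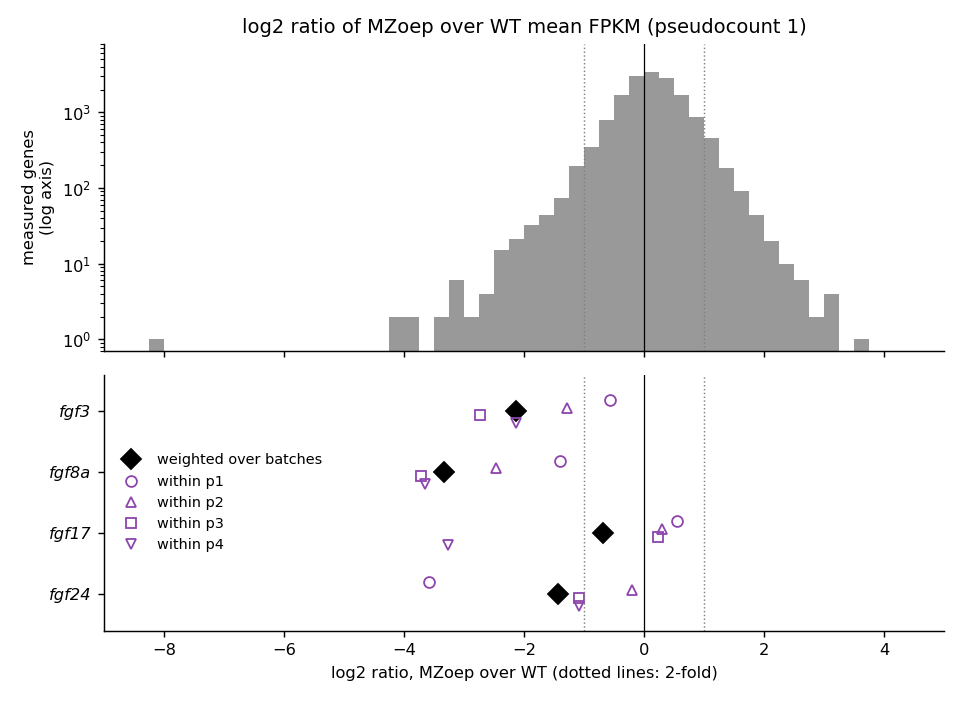
Upper panel, number of the 15831 measured genes in each bin of the log2 ratio of MZoep over WT mean FPKM (log axis); lower panel, the ratios of the 4 ligand genes weighted over batches (diamonds) and within each batch (open symbols), with dotted lines at 2-fold. The ratios of fgf8a lie at -1.41 or below in every batch, whereas those of fgf17 are above 0 in p1 to p3 and at -3.26 in p4.

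Ordered by weighted mean FPKM, which is per length and so can be set side by side between genes, the ligands ran fgf17, fgf24, fgf8a and fgf3 in MZoep (2.57, 0.140, 0.0878 and 0.0342 FPKM) and fgf8a, fgf17, fgf3 and fgf24 in WT (9.91, 4.72, 3.55 and 2.08 FPKM). The lower 3 levels in MZoep rest on 3 to 10 cells above 0 each, so their order among themselves was not resolved. In WT the order of fgf17, fgf3 and fgf24 depends on single cells, since the highest cell alone held 57.4%, 41.99% and 47.96% of their sums.

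**Figure D3:**
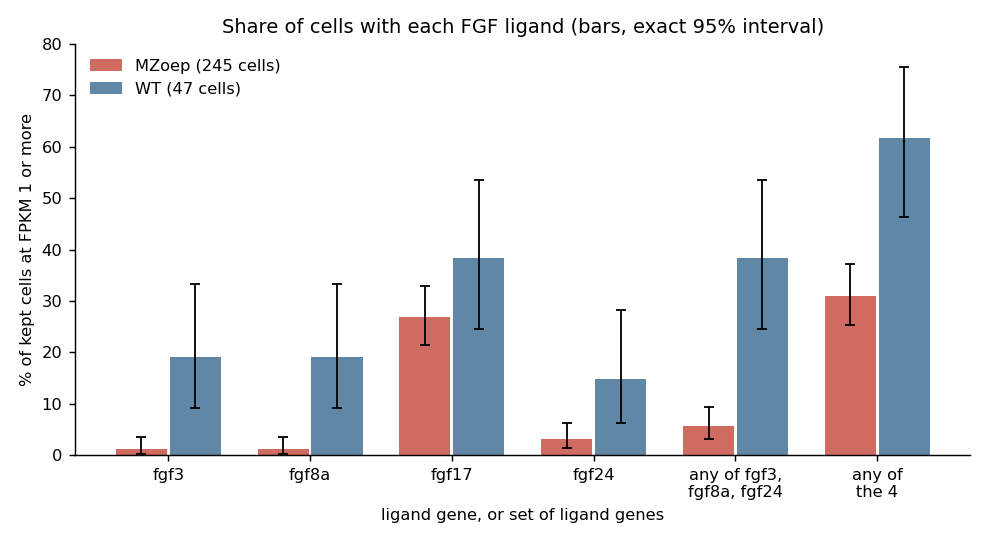
Share of kept cells with each ligand gene detected, with any of fgf3, fgf8a and fgf24, and with any of the 4, MZoep left of WT; bars are shares pooled over batches and whiskers exact 95% binomial intervals over cells. The intervals of the genotypes are apart for fgf3, fgf8a and both sets and overlap for fgf17 and fgf24. The set of fgf3, fgf8a and fgf24 was formed after the values were seen.

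At least 1 of the 4 ligands was detected in 76 MZoep cells (31.02%, 25.3 to 37.2) and 29 of 47 WT cells (61.7%, 46.4 to 75.5). Within p1 to p4 the shares were 25.3%, 36.3%, 39.3% and 12% of MZoep cells and 100%, 78.6%, 44.4% and 58.3% of WT cells. Taking fgf3, fgf8a and fgf24 alone, a set formed after the values were seen, the counts were 14 MZoep cells (5.71%, 3.16 to 9.40) and 18 of 47 WT cells (38.3%, 24.5 to 53.6). By batch these were 6, 2, 6 and 0 MZoep cells and 3, 5, 6 and 4 WT cells in p1 to p4, and 0 of 25 in p4 allows a share of up to 13.7%.

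Of MZoep cells, 72 had 1 ligand detected, 4 held 2 and 0 held 3 or 4. Of WT cells, 22 held 1, 2 held 2, 3 held 3 and 2 held all 4. None of the 14 MZoep cells with fgf3, fgf8a or fgf24 held more than 1 of these 3 genes. Multiplying the shares of each pair gives 0.0367 cells for fgf3 with fgf8a and 0.098 cells for each of these with fgf24. At shares this low the lack of overlap is no result about MZoep cells. What depth and low levels contribute was not tested.

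The MZoep pairs were fgf8a with fgf17 in 1 cell and fgf17 with fgf24 in 3, where multiplying the shares gives 0.808 and 2.155 cells. In WT, 4 of the 9 fgf3 cells also held fgf8a (44.4% of each), 6 of 9 held fgf17 and 3 of 9 held fgf24. Multiplying the WT shares gives 1.72, 3.45 and 1.34 cells for these pairs in the same order. The other WT pairs were nearer to that product. They were fgf8a with fgf17 in 5 cells, fgf8a with fgf24 in 2 and fgf17 with fgf24 in 3, against 3.45, 1.34 and 2.68. Across the kept MZoep cells, Pearson's r of log2(FPKM + 1) centred within batch lay between -0.06 and 0.06 for all 6 pairs. Across the 47 WT cells it was 0.54 for fgf3 with fgf8a, 0.49 for fgf3 with fgf17 and 0.47 for fgf8a with fgf17, and between 0.11 and 0.26 for pairs with fgf24. The points share cells, depth and the many values at 0, and the WT values rest on a handful of cells.

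Both WT cells that held all 4 ligands were rich in other margin transcripts. The cell of p3 had 19.6 FPKM of fgf3, 68.4 FPKM of fgf8a, 3.48 FPKM of fgf17 and 2.11 FPKM of fgf24, and 19 of 21 listed margin genes detected. The cell of p4 had 38.4, 112.1, 136.6 and 10.2 FPKM of the same genes in that order, and 14 of the margin genes. It was also the WT cell with 447 FPKM of gsc, a homeobox gene of the dorsal organizer, and 340 FPKM of chrd, the secreted BMP antagonist chordin.

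The label of the ligands as genes of the margin was checked against the 21 margin genes, which comprise 10 found along the whole margin, 5 of its dorsal side and 6 of its ventral and lateral sides. MZoep cells with fgf3, fgf8a or fgf24 had a median of 5.5 of them (2 to 10) and MZoep cells without had 5 (0 to 11). In WT, cells with one of these ligands had a median of 11 (4 to 19) and cells without had 5 (1 to 13). For fgf17 the medians with and without it were 9.5 and 5 in WT and 5 and 5 in MZoep. By single ligand in MZoep, they were 6.5 and 5 for fgf24, 4 and 5 for fgf3 and 3 and 5 for fgf8a. These rest on 8, 3 and 3 cells with the ligand. The label is therefore borne out in WT by other genes of the same cells. In MZoep the medians with and without any of fgf3, fgf8a and fgf24 were close, and those of single ligands went both ways. Numbers of genes per cell were close, with medians of 7108 in WT cells with a ligand and 6893 in those without.

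**Figure D4:**
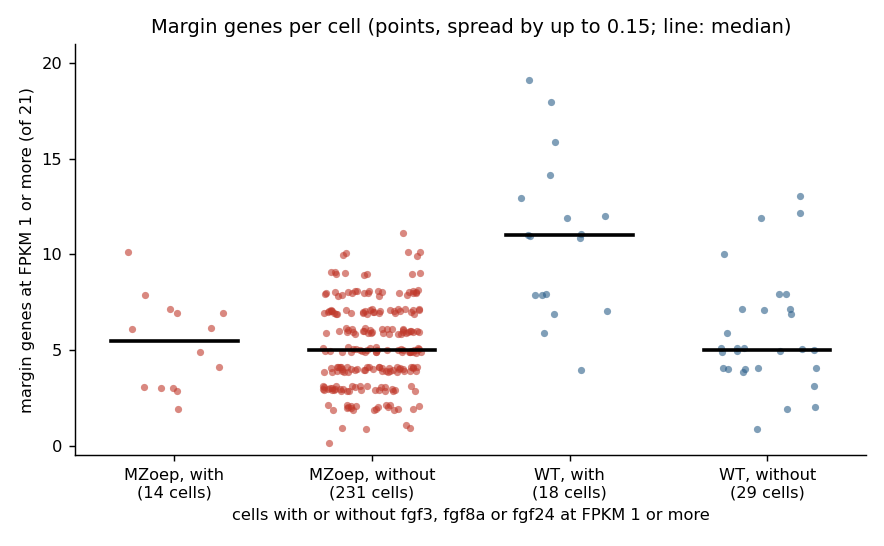
Number of 21 margin genes detected in each cell (points, spread slightly for visibility) with or without fgf3, fgf8a or fgf24, with medians as lines, in MZoep and in WT. WT cells with a ligand have a median of 11 margin genes and all other groups lie at 5 or 5.5.

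Single margin genes are named here after their values were seen. Among them, tbxta (Brachyury, the T-box factor of the margin and notochord) was in 18 of 18 WT cells with fgf3, fgf8a or fgf24 and in 18 of 29 WT cells without. The Nodal ligand genes ndr1 and ndr2 were in 6 and 8 of the 18 cells with a ligand and in 1 and 2 of the 29 without. The gene lhx1a, a LIM homeobox gene of the organizer, was in 12 of 18 and 7 of 29, and foxa3, a forkhead gene of axial mesoderm and endoderm, in 13 of 18 and 8 of 29. Others of the list hardly differed, with gsc in 5 of 18 and 7 of 29 and the homeobox gene cdx4 in 6 of 18 and 9 of 29. For fgf8a alone, lft1 and lft2, which encode secreted Nodal inhibitors, were in 7 and 5 of the 9 WT cells with it and in 3 and 1 of the 38 without. The T-box gene tbx16 was in all but 1 of the MZoep cells and in all 47 WT cells and so separated no group, and tbx6 was at 0 in every WT cell. In MZoep, chrd was in 1 of the 14 cells with fgf3, fgf8a or fgf24 and in 38.5% of those without, and gsc in 1 of 14 and 24.7%. Other genes went the other way there, among them tbxta with 71.4% and 54.6%. In WT, chrd was in 13 of 18 and 12 of 29.

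Markers of other cells were read in the same way. The median number of detected genes was 6 of 14 animal-side ectoderm markers, 6 of 10 enveloping layer markers and 3 of 6 germ cell markers, both in WT cells with and in WT cells without fgf3, fgf8a or fgf24. Their median summed levels were not equal. The ectoderm markers came to 621.3 FPKM in WT cells with one of these ligands and 715.8 FPKM in WT cells without, and the enveloping layer markers to 184.9 FPKM with and 111.6 FPKM without. By single ligand, the ectoderm sum was 173.9 FPKM in WT cells with fgf3 and 711.8 FPKM in those without, and 222.5 FPKM in WT cells with fgf8a and 705.2 FPKM in those without, and in each of these comparisons the ranges overlap. What these markers contribute to the ligand values was not tested. The sums also differed between genotypes. The median summed level of the 21 margin genes was 186.7 FPKM in MZoep cells (0 to 1368) and 248.4 FPKM in WT cells (39.4 to 2426), with 16 of 21 at least 2-fold lower in MZoep and 2 at least 2-fold higher. That of the 10 enveloping layer genes was 237.8 FPKM in MZoep cells (0 to 14120) and 123.4 FPKM in WT cells (14.7 to 1254), with 8 of 10 at least 2-fold higher in MZoep. Whether fewer margin cells among those picked, or less transcript per margin cell, accounts for the ligand differences cannot be told apart from these lists.

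Shares were also read in cells with tbxta only. All 18 WT cells with fgf3, fgf8a or fgf24 held tbxta, so this restriction could only raise the WT share of these genes. Many cells without these ligands held tbxta too, 18 of 29 in WT and 54.6% in MZoep. What the mix of picked cells contributes was therefore not tested by it. Of the cells with tbxta detected, 43 MZoep cells (31.6%, 23.9 to 40.1) and 27 of 36 WT cells (75%, 57.8 to 87.9) held at least 1 of the 4 ligands. For fgf3, fgf8a or fgf24 the counts were 10 MZoep cells (7.35%, 3.58 to 13.1) and 18 of 36 WT cells (50%, 32.9 to 67.1). At 10 FPKM or more for both, 0 of 93 MZoep cells (upper limit 3.89%) and 11 of 24 WT cells (45.8%, 25.6 to 67.2) held one of these 3. For fgf17 detected the shares were 27.2% of MZoep (19.9 to 35.5) and 44.4% of WT tbxta cells (27.9 to 61.9), with overlapping intervals.

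Among MZoep cells grouped by their fgf17 level, the share with chrd was highest in the cells of highest fgf17, a pattern noticed in the values and given as a description. Transcripts of chrd were detected in 12 of the 14 MZoep cells (85.7%) with fgf17 at 10 FPKM or more, in 22 of 52 (42.3%) with fgf17 between 1 and 10 FPKM, and in 31.3% of those below 1 FPKM. Pooled over batches, some other dorsal genes had shares in the same order, though with smaller steps. These were 64.3%, 55.8% and 47.5% for the homeobox gene noto, 35.7%, 32.7% and 20.1% for gsc, 28.6%, 23.1% and 12.3% for foxa3, and 14.3%, 13.5% and 6.15% for the organizer homeobox gene dharma. For tbxta they were 57.1%, 55.8% and 55.3%, nearly equal. Higher shares were not limited to dorsal genes. In MZoep cells with and without fgf17 detected, the ventral and lateral gene msgn1 was in 10.6% and 1.12%. The ectoderm marker her3 was in 21.2% and 8.94%. The ventral and lateral gene cdx4 was in fewer of the cells with fgf17, 30.3% against 50.8%. These were picked after their values were seen. Among the dorsal genes, lhx1a went the other way, in 2 of 66 MZoep cells with fgf17 detected (3.03%) and in 5.03% of those without. The gene dharma is not one of the 21 margin genes. It was among the 5 genes most correlated with fgf17 over the full-length cells (r 0.26), so its shares are no separate result. Within p2 chrd was in 8 of 10, 8 of 18 and 24 of 52 cells of the same fgf17 levels and within p3 in 4 of 4, 8 of 16 and 11 of 41. For chrd the order did not hold within p2, where 44.4% of the middle group and 46.15% of the lowest group held it. Nor did it hold within p2 for gsc (3 of 10, 8 of 18 and 20 of 52) or foxa3 (1 of 10, 6 of 18 and 11 of 52). Within p3 it held for chrd, for gsc (2 of 4, 5 of 16 and 8 of 41) and for foxa3 (3 of 4, 3 of 16 and 4 of 41). For noto it held within p2 but not within p3, and for dharma in neither batch. In p1, which had no cell at 10 FPKM or more, chrd was in 5 of 15 cells between 1 and 10 FPKM and in 16 of 64 below. In the 5-prime MZoep cells chrd was in 15 of 27 with an fgf17 UMI (55.6%, 35.3 to 74.5) and in 26 of 59 without (44.1%, 31.2 to 57.6), a difference within counting error. Among these cells gsc was in 12 of 27 and 18 of 59. Shares were lower with an fgf17 UMI for noto (17 of 27 and 38 of 59), foxa3 (4 of 27 and 14 of 59) and dharma (1 of 27 and 4 of 59). In WT, chrd was in 10 of 18 cells with fgf17 detected and in 15 of 29 without. The WT shares differed more for foxa3 (12 of 18 and 9 of 29) and noto (16 of 18 and 19 of 29). They differed less for gsc (5 of 18 and 7 of 29) and lhx1a (8 of 18 and 11 of 29). For tbxta they were 16 of 18 and 20 of 29.

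The 5-prime libraries gave the members in other MZoep cells and in counts of molecules. The 86 kept cells had 29246 to 73231 UMIs each (median 47195). For fgf17, 27 cells (31.4%, 21.8 to 42.3) held 54 UMIs in all, or 13.3 per 1000000 UMIs (exact Poisson 95% interval 9.99 to 17.4). Of these cells, 16 held 1 UMI and the highest held 6.

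For fgf3, 3 cells (3.49%, 0.725 to 9.86) held 3, 1 and 1 UMIs, and for fgf24 3 cells held 2, 2 and 1. Both genes thus came to 1.23 per 1000000 UMIs (0.3999 to 2.87), below the interval of fgf17. At least 1 of fgf3, fgf17 and fgf24 was in 30 of 86 cells (34.9%, 24.9 to 45.9). As in the full-length MZoep cells, fgf17 was the frequent ligand and fgf3 and fgf24 were rare. Shares on the 2 scales cannot be set against each other, since one is a level threshold and the other a single molecule.

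For each ligand, genes were named from the 5 with the highest Pearson's r of log2(FPKM + 1), centred within genotype and batch over 292 cells. For fgf3 they included lhx1a (0.62), lft2 (0.52), mespab (0.44) and osr1 (0.43), and for fgf8a lft2 (0.70), lft1 (0.53), ndr2 (0.53) and irx3a (0.53). Of these, lhx1a and irx3a are homeobox genes, mespab is a basic helix-loop-helix gene of paraxial mesoderm and osr1 is a zinc-finger gene of early mesoderm. Among those named here, mespab had the lowest log2 ratio of MZoep over WT (-3.80), with 0.116 FPKM in MZoep and 14.6 FPKM in WT. The highest was that of irx3a (-0.81), with 0.210 FPKM in MZoep and 1.12 FPKM in WT. These end points were named after their values were seen. The correlations rest on few cells, since fgf8a and lft2 were both detected in 5.

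For fgf24 the most alike genes were tph1b (0.43), which encodes a tryptophan hydroxylase, cyp27c1 (0.34), adarb2 (0.33), ndr2 (0.30) and the homeobox gene sebox (0.30). For fgf17 they were zgc:171509 (0.30), si:dkey-20f20.3 (0.29), si:dkey-284e7.2 (0.28), net1 (0.26) and dharma (0.26), a homeobox gene of the dorsal organizer. Values this low in sparse data are no finding. Over the 5-prime cells, r for the pairs that could be computed lay between -0.09 and 0.16.

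Of 23 other FGF genes in the expression table, 6 were measured. At least 2-fold lower in MZoep was fgf13a, detected in 3 MZoep cells and 6 WT cells (log2 ratio -1.04), and at least 2-fold higher was fgf13b, with 31 MZoep cells and 1 WT cell (1.14). Both encode intracellular FGF homologous factors rather than secreted ligands. The secreted ligand gene fgf4, next to fgf3 with no protein-coding gene between them in the RefSeq annotation, was in 1 MZoep cell at 7.53 FPKM and in 4 WT cells with up to 16.1 FPKM (log2 ratio -0.64). The remaining 3 genes fgf1b, fgf12b and fgf14 had ratios of -0.11, -0.07 and 0.49.

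Genes on the receiving side of the pathway were compared between the genotypes in the same way. Of 17 measured receptors, feedback inhibitors and targets, 0 lay past 2-fold in either direction, which is near the 2.54% lower and 5.15% higher among all measured genes and so is no result about these 17. Their median log2 ratio was 0.07 against 0.12 over all measured genes. The 4 receptor genes lay between -0.03 for fgfr2 and 0.14 for fgfr4. The 9 feedback inhibitors lay between -0.70 for the Sprouty gene spry1 and 0.44 for the receptor antagonist gene il17rd, with a median of -0.23. The 4 targets lay between -0.66 for flrt3 and 0.55 for the ETS gene etv5a, with a median of 0.27. These end points were named after their values were seen.

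**Figure D5:**
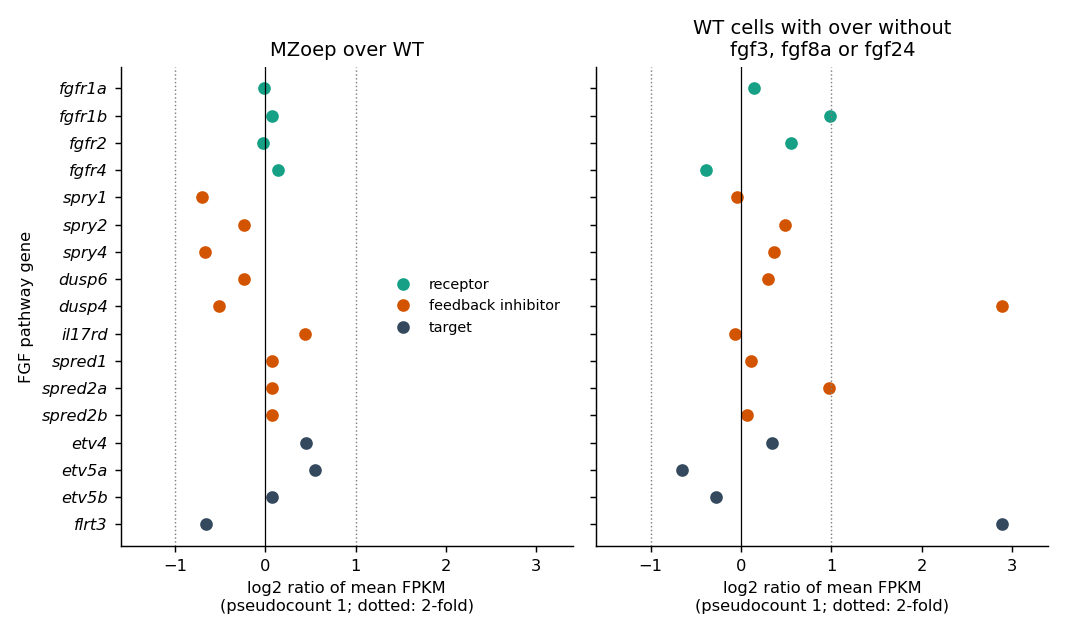
log2 ratios of mean FPKM (pseudocount 1) of 17 measured FGF pathway genes, in MZoep over WT (left) and in WT cells with over WT cells without fgf3, fgf8a or fgf24 (right), with dotted lines at 2-fold. All lie within 2-fold on the left, and on the right dusp4 and flrt3 stand at 2.89.

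Within WT, 2 pathway genes were higher in the cells that held a ligand. The gene dusp4, encoding a MAP kinase phosphatase, averaged 26.3 FPKM in WT cells with fgf3, fgf8a or fgf24 and 2.68 FPKM in WT cells without, weighted over p2 to p4 (log2 ratio 2.89). It was detected in 11 of the 18 cells with a ligand, up to 166.3 FPKM, and in 8 of the 29 without, up to 23.8 FPKM. The gene flrt3, encoding a transmembrane protein that interacts with FGF receptors, averaged 8.37 FPKM in cells with and 0.262 FPKM in cells without (2.89), and was in 11 of 18 and 4 of 29 cells. Without the highest ligand cell of each gene, an alternative chosen after the values were seen, the ratios were 2.25 for dusp4 and 2.60 for flrt3. These 2 ratios took means without batch weights, which were 2.56 and 0.258 FPKM in the cells without a ligand. The step from 2.89 thus mixes the loss of a cell with a change of weights.

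The other 15 pathway genes were within 2-fold in this comparison, among them 3 targets of the ETS family, and 0 were at least 2-fold lower. Of all measured genes 772 (4.88%) were at least 2-fold higher in the WT ligand cells and 1239 (7.83%) at least 2-fold lower, and the median log2 ratio was 0.30 for the pathway genes and -0.08 for all. WT cells with a ligand also carried more margin genes, as given above, and what that adds to these ratios was not tested.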

How the data were processed

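The authors deposited FPKM values per gene for the full-length cells and counts of UMIs per gene for the 5-prime cells. The tools named in the submitters' processing notes are RSEM and Bowtie2, with genome build GRCz10. The annotation, any filters and the collapsing of UMIs were not given in the sources used here. FPKM are relative to each cell's total, so a change in abundant transcripts moves all other genes. The deposited count table also holds 328 columns of the full-length cells, which are 0 throughout and were not used. Read depth behind the FPKM is unknown.

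Symbols are in capitals in the files; tbxta, chrd and otx1 were matched as TA, CHD and OTX1B through RefSeq synonyms. RefSeq annotation of assembly GRCz12tu differs from the build used, so it gave names and neighbours only and no coordinates are printed.

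Of 276 MZoep and 52 WT full-length cells, those under 1500 genes at 1 FPKM (31 MZoep, 5 WT) were left out, which kept 245 MZoep and 47 WT cells. Of the 5-prime cells, 2 with under 500 genes were left out; no doublet caller and no clustering were run, and no kept columns were identical. Mean FPKM per batch was averaged with weights of 7.85%, 32.4%, 37.8% and 22.0% (p1 to p4), each set by multiplying both genotypes' cell numbers and dividing by their sum. The log2 ratio took a pseudocount of 1 FPKM, so differences of low genes are understated. The series' design states that all samples were sequenced together; whether both genotypes of a library preparation batch were processed together is not stated. Shares were pooled over batches. No p-value was computed, because each genotype is 1 sample. The calculation of ratios was tested on simulated data.

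The members, the marker and pathway lists and the settings were chosen with earlier results of these data known. Named genes were the members, the 5 genes most correlated with each among those at 1 FPKM or more in at least 10 cells, measured FGF genes, and pathway genes at least 2-fold apart; others are said to be chosen after their values were seen. 1 of the correlated genes is not reported here. Alternatives changed the pseudocount, the mean, the scaling, the cell filter, the weights, the threshold, single batches and the highest cell. Python 3.11.15, numpy 2.4.6, pandas 2.3.3, SciPy 1.17.1 and matplotlib 3.10.9 were used.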

Additional observations from a re-analysis of the deposited data

Results flagged for a closer look

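The ligand gene fgf17 reached 177.5 FPKM in 1 MZoep cell of p3 that entered no comparison because it had 1348 genes at 1 FPKM or more, under the minimum of 1500. It is listed here because a signal stood in a cell outside the measurement reported above. Of the 36 cells left out it was the only one with fgf17 at 1 FPKM or more, and 0 held fgf3, fgf8a or fgf24. With all cells kept, the log2 ratio of fgf17 was -0.30 in place of -0.68.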

How the results depend on the processing

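Each of the 4 log2 ratios was recomputed under 14 alternatives. They ran from -5.74 to -0.92 for fgf8a, -4.76 to -0.43 for fgf3, -3.18 to -0.25 for fgf24 and -1.37 to 0.27 for fgf17. With a pseudocount of 10 FPKM no ligand was 2-fold lower (fgf3 -0.43, fgf8a -0.98, fgf24 -0.25), nor with the mean of log2 values (-0.63, -0.92 and -0.42 in the same order). By construction, the larger pseudocount shrinks ratios of genes with low means, and the mean of log2 values gives less weight to rare high cells. For fgf24 the ratio was -0.80 without its highest cell, which is a WT cell, and -0.85 without p1. For fgf17 it was -1.37 without p2, past 2-fold, 0.27 without p4 and 0.15 without its highest WT cell, the last setting chosen after seeing the data for all 4 genes. The cause was not tested. The share of cells with any of the 4 ligands was 48.6% of MZoep cells at FPKM above 0, 12.7% at 5 FPKM and 5.71% at 10 FPKM, and in WT it was 36.2% at 5 FPKM and 29.8% at 10 FPKM. Among tbxta cells it was 2.15% in MZoep and 54.2% in WT at 10 FPKM for both genes. In the 5-prime cells the share with fgf3, fgf17 or fgf24 was 15.1% at 2 UMIs or more and 24.4% after thinning to 20000 UMIs. No paired analysis was possible because no result comes from a test and each genotype is 1 sample. With 3 WT cells in p1 and 47 in all, single cells set several WT means, and shares near 0 cannot be told from levels below detection at this depth.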
